A study of Mus musculus with 4 samples.

Results

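Interferon response genes, the transcripts by which cells sense interferon and build an antiviral state, were followed across 4 treatments of mDCT cells, which are mouse kidney cells immortalised from the distal convoluted tubule, the segment of the nephron where salt is reabsorbed under hormonal control. The list named 37 genes and was chosen with earlier results of these data known. A member was a gene whose probe set carried exactly 1 gene symbol, and the brightest probe set by mean log2 signal stood for the gene. Of the 37 genes, 36 were found among 18193 named genes. The only listed gene not found, Isg15, was annotated together with a second gene and is not given. A filter kept genes whose mean log2 signal reached that of the median probe set (signal 55.9). Of the 36, 32 passed it and entered the comparisons together with 11057 genes in all. Dhx58, Mx1, Mx2 and Oasl2 lay below it and were only counted.

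All 4 groups shared the same cells and a transient transfection with human mineralocorticoid receptor (MR) carrying a FLAG tag. MR is the nuclear receptor that aldosterone activates and spironolactone blocks. At 48 h from transfection the cells received spironolactone or its ethanol vehicle, and 2 h after that, for 3 h, the hormone or vehicle. A first group had ethanol throughout. Others had aldosterone at 1 nM or at 100 nM, and the last had 5 µM spironolactone ahead of the 100 nM dose. Each group has 1 array and no replicate, so every difference below is one between libraries and carries no error estimate or p-value. The labels name no group with interferon, with spironolactone alone or without the plasmid.

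Type I interferons bind a receptor made of Ifnar1 and Ifnar2, and interferon gamma binds one that contains Ifngr1. The receptors act through kinases on STAT proteins. STAT proteins with Irf9 bind an interferon-stimulated response element (ISRE) in many antiviral genes, while STAT dimers bind a gamma-activated site (GAS). Cytosolic sensors of viral RNA start interferon production through Irf3 and Irf7. Kidney epithelial cells, like most nucleated cells, carry this machinery, and many of its genes are themselves induced by interferon.

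The MAS5 signals had a trimmed mean of 500.003 in each library, and Pearson correlations between libraries over the genes that entered lay between 0.991 and 0.992. As a check of the hormone response, Sgk1, a kinase induced by corticosteroids, had signals of 801, 935, 1810.4 and 1424 in ethanol, 1 nM aldosterone, 100 nM aldosterone and spironolactone with 100 nM aldosterone, an order of libraries kept for all sets of 4 values below. Per1 and Tsc22d3, also corticosteroid targets, exceeded ethanol at 100 nM by 1.19 and 0.94 on the log2 scale, past 1.5-fold. Fkbp5, another target, did not pass it at 0.40, with signals of 1315, 1880.3, 1735 and 1414, highest with 1 nM. Of 7 distal convoluted tubule markers with a probe set, 3 lay at or above the filter (Pvalb, Trpm6 and Wnk4), and Slc12a3, the cotransporter that defines the segment, did not, with signals of 3.93, 17.2, 12.1 and 4.35. The summed signal of the 7 lay between 372 and 553. Of 7 epithelial markers only Epcam reached the filter, and the 7 summed to between 290.1 and 326. Markers of leukocytes, cells in which many interferon genes are high, reached it in 3 of 10 cases (Cd68, Csf1r and Cd14). Their summed signal lay between 2004 and 2334, and Ptprc, the pan-leukocyte marker, had signals of 12.3, 0.66, 14.3 and 10.2. Of 7 fibroblast markers 0 reached the filter, with sums between 153 and 255. Of 6 endothelial markers only Kdr did, and the 6 summed to between 125 and 176.

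Most of the interferon response genes differed little between treatments. Of the 32 members, 28 stayed within 1.5-fold from their lowest to their highest library, and the median ratio of highest to lowest was 1.18, against 1.17 for all genes. The 4 members past 1.5-fold were Stat2, Irf7, Rsad2 and Psmb9. Across all genes that entered, 12.1% were past it, so 4 of 32 is close to the background. Of the 17 members at or above the 75th percentile of probe set signal, 419.8, 0 reached 1.5-fold, and the highest ratio among them was 1.27, for Ddx58; among all genes of that signal 1.54% reached it. Of the 15 members between the median and the 75th percentile, 4 reached it, which are the 4 named, against 29.8% of all such genes. Bulk arrays cannot tell fewer cells of a type from less RNA per cell.

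**Figure D1:**
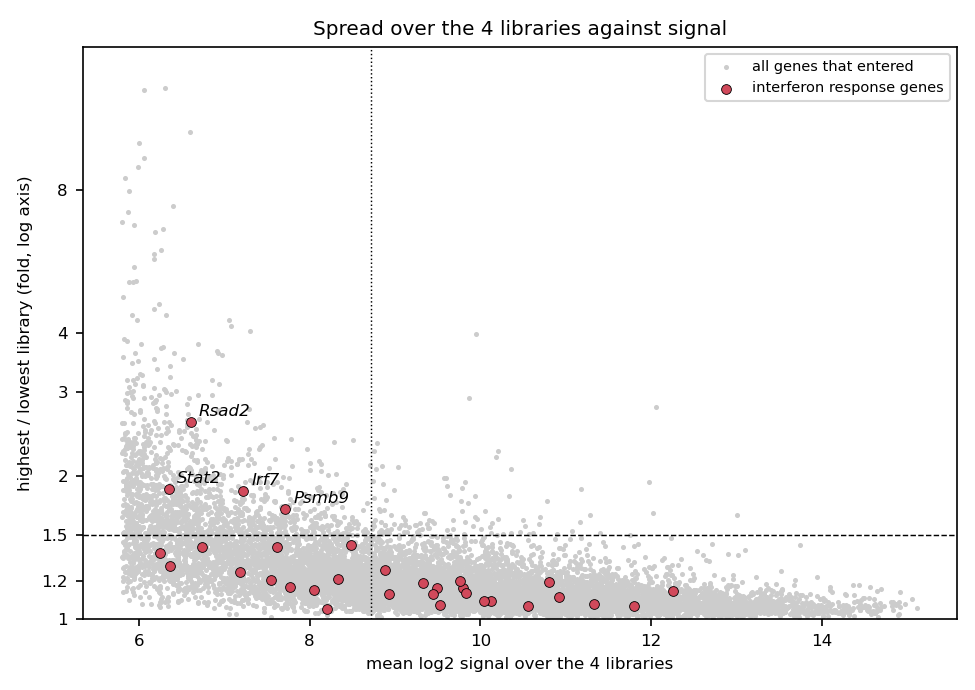
Fold between the highest and the lowest of the 4 libraries (log axis) against mean log2 signal, for all 11057 genes (grey) and the 32 interferon response genes (red); the dashed line marks 1.5-fold and the dotted line the 75th percentile of signal. Stat2, Irf7, Rsad2 and Psmb9 lie above the dashed line, all to the left of the dotted line, where genes of every kind spread more.

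Of the 36 members, 30 had at least 1 window in the RefSeq promoter table (GRCm38.p6), which runs from 250 bases before to 50 bases after a start. Dhx58, Mx1, Mx2, Parp9, Parp14 and Usp18 had none. The ISRE core was searched as GAAA, then any 2 bases, then GAAA, and the GAS as TTCNNNGAA, on both strands. Of 37 member windows 13 (35.1%) held an ISRE core, against 3.44% of all 32851 windows, and 13 (35.1%) held a GAS, against 8.30%. In 2 of 18 ISRE matches the letters overlapped a GAS match. Members with an ISRE core were Bst2, Ddx58, Eif2ak2, Gbp2, Ifih1, Ifit1, Ifit3, Ifitm2, Ifitm3, Irf2, Oas1a, Rsad2 and Stat2. These windows show the shared letters, read in the direction of the motif with the core in capitals and 6 flanking bases on each side. Upstream of the start lie those of Ifit1 at chr19:34640798-34640819 (minus strand), 85 bases before it, of Gbp2 at chr3:142620598-142620619 (minus strand), 59 before, and of Irf2 at chr8:46739498-46739519 (plus strand), 241 before. Within the first transcribed bases lie those of Ddx58 at chr4:40239808-40239829 (plus strand), from base 3, of Eif2ak2 at chr17:78882539-78882560 (minus strand), from base 19, and of Ifih1 at chr2:62646208-62646229 (minus strand), from base 33. The window of Ifit1 is 1 of 2 in its promoter.
Ifit1: cagtgaGAAACTGAAActgaga
Gbp2: gacagtGAAAGTGAAActaaaa
Ddx58: ccatagGAAATCGAAActgcct
Ifih1: agaatcGAAACAGAAAccgatc
Eif2ak2: cgccggGAAAACGAAAcagaag
Irf2: ggaagtGAAAATGAAAttgact

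The 13 members with the core lay on both sides of 0. Their median log2 difference was -0.03 at 100 nM aldosterone against vehicle and 0.03 between spironolactone and the 100 nM dose alone. Of these 13, 2 passed 1.5-fold over the 4 libraries, Stat2 and Rsad2, against 12.1% of all genes. The 16 that entered and had a window without the core had medians of 0.02 and -0.14. Of these 16, 2 passed 1.5-fold, Irf7 and Psmb9, against the same 12.1%, so both counts are close to the background. The 250 bases upstream of 5 starts are shown, for 3 genes whose libraries parted by over 1.5-fold (Stat2, Rsad2 and Irf7), for Ifit3, which came close, and for Bst2, which stayed flat. Capitals mark ISRE cores on either strand, and a match is a description of letters, not a bound site.

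The stretch of Stat2 is chr10:128270248-128270497 (plus strand), with 1 core 222 bases upstream of the start. That of Rsad2 is chr12:26456453-26456702 (minus strand), with 1 core beginning 120 bases upstream. That of Irf7 is chr7:141266425-141266674 (minus strand), with 0 cores. That of Ifit3 is chr19:34583279-34583528 (plus strand), with 2 cores, and that of Bst2 is chr8:71537473-71537722 (minus strand), with 2 overlapping cores.
Stat2: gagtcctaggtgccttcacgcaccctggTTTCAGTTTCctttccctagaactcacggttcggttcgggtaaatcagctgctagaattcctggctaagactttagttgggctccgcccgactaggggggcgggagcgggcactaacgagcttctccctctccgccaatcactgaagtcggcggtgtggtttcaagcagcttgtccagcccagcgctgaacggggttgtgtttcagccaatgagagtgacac
Rsad2: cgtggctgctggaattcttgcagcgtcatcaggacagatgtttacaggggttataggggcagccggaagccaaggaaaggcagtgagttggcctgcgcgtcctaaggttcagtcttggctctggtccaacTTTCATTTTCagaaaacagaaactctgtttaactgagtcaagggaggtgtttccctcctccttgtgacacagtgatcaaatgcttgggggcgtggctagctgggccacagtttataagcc
Irf7: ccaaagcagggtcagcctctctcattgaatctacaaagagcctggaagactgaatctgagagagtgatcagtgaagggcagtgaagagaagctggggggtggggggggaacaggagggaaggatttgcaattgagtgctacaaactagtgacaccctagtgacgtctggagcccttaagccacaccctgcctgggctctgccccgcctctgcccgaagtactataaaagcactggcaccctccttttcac
Ifit3: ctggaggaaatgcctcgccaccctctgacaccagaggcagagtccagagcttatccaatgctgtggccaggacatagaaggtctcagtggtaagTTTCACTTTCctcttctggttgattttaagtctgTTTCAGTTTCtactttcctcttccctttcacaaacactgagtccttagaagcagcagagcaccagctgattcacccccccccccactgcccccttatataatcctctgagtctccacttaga
Bst2: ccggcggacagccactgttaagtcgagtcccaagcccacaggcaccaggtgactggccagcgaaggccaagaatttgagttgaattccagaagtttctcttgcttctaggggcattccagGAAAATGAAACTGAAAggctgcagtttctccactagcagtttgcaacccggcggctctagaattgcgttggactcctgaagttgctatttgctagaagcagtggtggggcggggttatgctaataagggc

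The receptors come first in the pathway. Ifnar1, the signal-transducing chain of the type I receptor, had signals of 766, 716, 741 and 659. Ifnar2, its ligand-binding partner, had signals of 918, 914, 927 and 799. Ifngr1, the ligand-binding chain for interferon gamma, had signals of 1655, 1963, 1927 and 1639.7. All 3 were lowest in the spironolactone library, Ifngr1 only just below ethanol, with log2 differences from 100 nM aldosterone alone of -0.17, -0.22 and -0.23. None reached 1.5-fold between any of the libraries. The other 2 Ifnar2 probe sets at or above the filter differed from 100 nM aldosterone alone by -0.02 and -0.51 with spironolactone. The first of these did not share the order, with signals of 416, 437, 453 and 446, lowest in ethanol. The second was past 1.5-fold against ethanol, at -0.91.

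Among the transcription factors, Irf7 and Stat2 varied and the others did not reach 1.5-fold between any libraries. Irf7, which drives interferon alpha genes, had signals of 112, 113, 208 and 186. Ethanol and 1 nM aldosterone were alike and low, and both libraries with 100 nM aldosterone were high. The log2 difference from ethanol was 0.01 with 1 nM and 0.89 with 100 nM aldosterone, and 0.73 with spironolactone. Spironolactone with aldosterone differed from aldosterone alone by -0.16. Irf7 has a single probe set, so this order has no second reading.

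Stat2, the STAT protein that partners Irf9 on the ISRE, had signals of 115, 64.9, 96.7 and 61.0. Ethanol and 100 nM aldosterone were high and the other libraries were close to the filter. The log2 differences were -0.82 between 1 nM aldosterone and ethanol and -0.67 between the spironolactone library and 100 nM aldosterone alone. With a pseudocount of 50 added to the signals neither difference reached 1.5-fold. A second Stat2 probe set had signals of 69.5, 71.3, 101 and 71.5, high only with 100 nM aldosterone. It differed by 0.04 and -0.50 in these comparisons. The difference of 1 nM aldosterone from ethanol was thus not shared, while that of spironolactone from 100 nM aldosterone alone had the same sign.

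Irf1, an activator of interferon gamma targets, had signals of 2054, 1895, 1847 and 1941. Irf9, the DNA-binding subunit of the complex with Stat2, had signals of 507, 458, 518 and 476, and Irf3, the factor that RNA sensors switch on, 965, 913, 918 and 850.1. The highest library exceeded the lowest by 1.11-fold, 1.13-fold and 1.14-fold in turn, and 100 nM aldosterone differed from ethanol by -0.15, 0.03 and -0.07. The Irf3 probe set is of a kind that may bind other transcripts. Irf2, which competes with Irf1, had signals of 229.7, 162, 187 and 212, lowest with 1 nM aldosterone, where it differed from ethanol by -0.50.

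The cytosolic RNA sensors differed less. Ifih1, which encodes MDA5, had signals of 301, 356, 293 and 339.7. Ddx58, which encodes RIG-I, had signals of 488, 441, 427 and 542. Both were lowest with 100 nM aldosterone, and they differed by 0.21 and 0.34 with spironolactone against it. A second Ddx58 probe set, with signals of 199, 195, 136 and 135, differed by -0.01, and so did not share the difference.

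**Figure D2:**
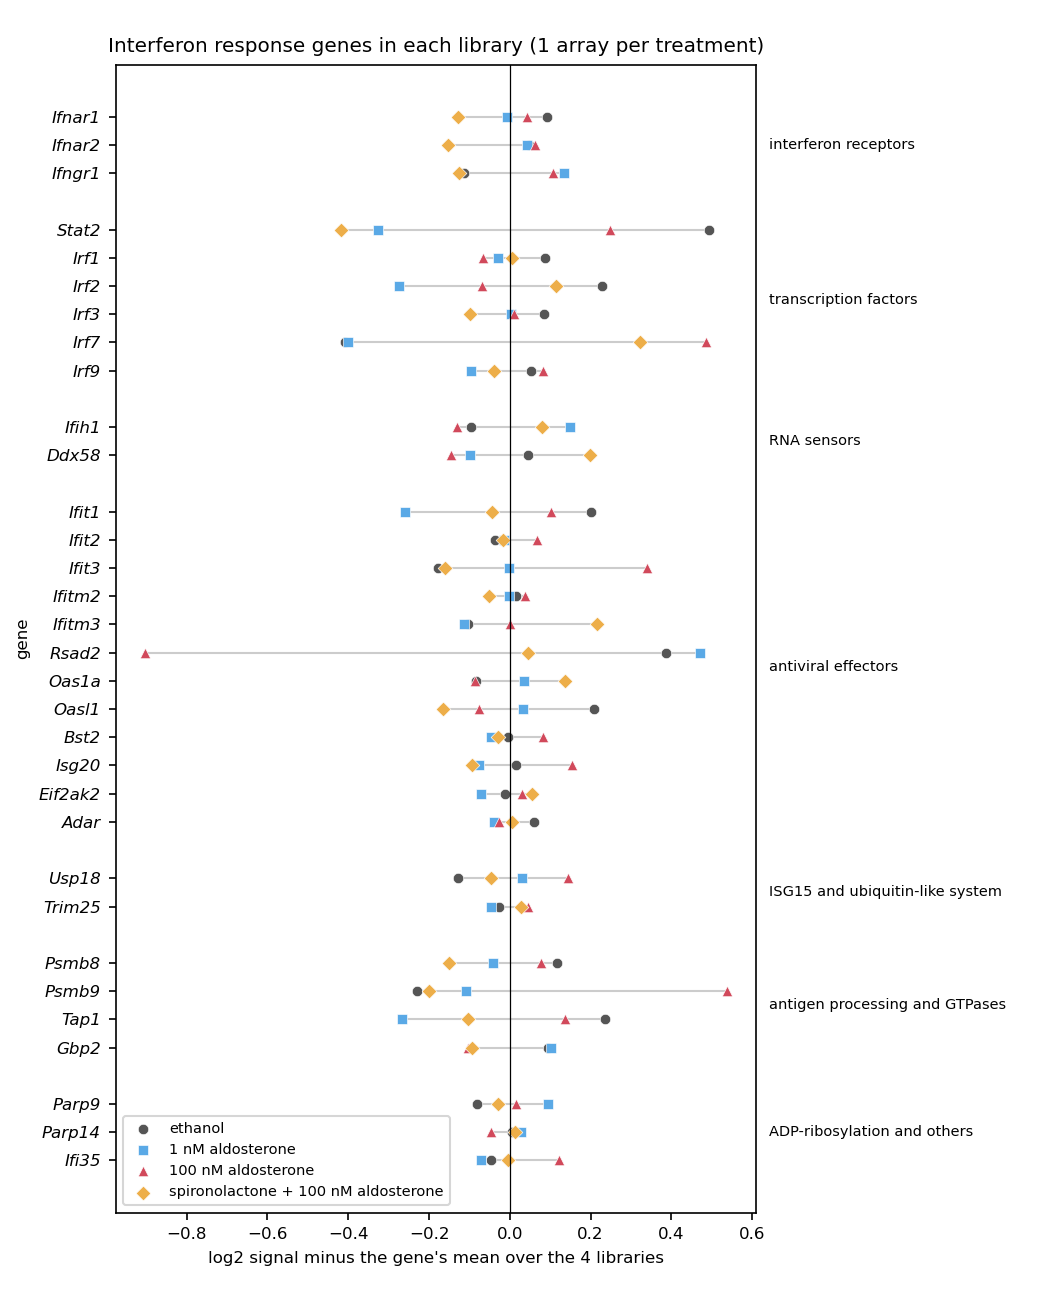
Log2 signal of each of the 32 interferon response genes in each library, relative to the gene's mean over the 4 libraries, grouped by role; points are single arrays and grey lines run from lowest to highest. Irf7 is high in both libraries with 100 nM aldosterone, Psmb9 and Ifit3 only in 100 nM aldosterone alone, Rsad2 is low there, and most other genes cluster near their mean.

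The antiviral effectors held 12 of the 32 members. Their median log2 difference from ethanol was -0.03 at 1 nM and 0.03 at 100 nM aldosterone, and that of spironolactone from 100 nM aldosterone alone was -0.09. Ifit2, which binds viral RNA, had signals of 2513, 2554, 2702 and 2548. Ifitm2, a membrane protein that blocks virus entry, had signals of 1519, 1502, 1542 and 1451, and Bst2, the tether of budding virus, 1117, 1085, 1186 and 1099. Their libraries lay within 1.07-fold, 1.06-fold and 1.09-fold of each other, and 100 nM aldosterone differed from ethanol by 0.10, 0.02 and 0.09. Eif2ak2, the RNA-activated kinase PKR, had signals of 1046, 1004, 1078 and 1097, a range of 1.09-fold. The RNA editor Adar had signals of 767, 716, 722 and 739, a range of 1.07-fold. These 5 genes, all above the 75th percentile of signal, held nearly 1 level across the treatments. The exonuclease Isg20 had signals of 648, 608, 714 and 600.4 and differed from ethanol by 0.14 at 100 nM. The oligoadenylate synthetase Oas1a, which switches on RNase L, had signals of 207, 224, 206 and 240.5 and differed by 0.00.

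Rsad2, which encodes viperin, an enzyme that makes a chain-terminating nucleotide, had signals of 127, 135, 52.1 and 101. The 100 nM library stood alone on the low side, below the filter, and the other 3 were above it. The log2 difference from ethanol was -1.29, and spironolactone differed from 100 nM aldosterone alone by 0.95. Both comparisons use that 1 library, and with a pseudocount of 50 the second fell short of 1.5-fold. The other 2 Rsad2 probe sets, both below the filter, had signals of 42.0, 42.8, 72.7 and 74.0 and 54.2, 45.0, 32.7 and 38.9 and differed from ethanol by 0.79 and -0.73, in opposite directions.

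Ifit3, an RNA-binding partner of Ifit1, had signals of 316, 357, 452 and 319.8, with 100 nM aldosterone above the other 3. It differed by 0.52 from ethanol and spironolactone differed from it by -0.50, short of 1.5-fold on each side. Ifit1, which binds RNA lacking a host cap, did not follow, with signals of 87.2, 63.3, 81.4 and 73.5 and a difference of -0.10, nor did Ifit2. Ifitm3, the close relative of Ifitm2, had signals of 136, 135, 146 and 169, highest with spironolactone, which differed from 100 nM aldosterone alone by 0.21. Oasl1, a relative of the synthetases that restrains Irf7, had signals of 94.9, 83.9, 77.8 and 73.2, highest in ethanol, with -0.37 for spironolactone against it.

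Usp18, which removes ISG15 from proteins and dampens receptor signalling, had signals of 171, 191, 206 and 181. Trim25, the ubiquitin ligase that activates RIG-I, had signals of 3509, 3463, 3690.2 and 3644, within 1.07-fold. At 100 nM aldosterone they differed from ethanol by 0.27 and 0.07. Parp9, which works in ADP-ribosylation, had signals of 661, 747, 706 and 686, and Parp14, an enzyme of the same family, 295, 299.6, 285 and 297. Their differences at 100 nM were 0.10 and -0.05. Ifi35, an interferon-induced leucine zipper protein, had signals of 4737, 4657, 5324 and 4879.6, highest with 100 nM aldosterone by 0.17 over ethanol. Of the probe sets used, those of Irf2, Trim25 and Ifi35 may read several related transcripts. Parp14 had the smallest spread of all 32 members.

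Antigen processing genes parted. Psmb9, a catalytic subunit of the immunoproteasome, had signals of 179, 195, 305 and 183. It was high with 100 nM aldosterone alone, while the other 3 libraries lay close together. The log2 difference was 0.77 from ethanol and 0.65 from 1 nM aldosterone. Spironolactone differed from 100 nM alone by -0.74 and from ethanol by 0.03. Each of these differences past 1.5-fold uses the same 1 library, that of 100 nM aldosterone alone. Psmb8, another catalytic subunit, had signals of 943, 845, 918 and 784 and a difference of -0.04 from ethanol. Tap1, the peptide transporter subunit, had signals of 126, 88.7, 117 and 99.2 and a difference of -0.10. The other 3 Tap1 probe sets lay below the filter. The GTPase Gbp2 had signals of 283, 284, 247 and 248, and both libraries with 100 nM aldosterone were the lower ones, by -0.20 from ethanol for the hormone alone. A second Gbp2 probe set above the filter did not share this order, with signals of 154, 167, 162 and 211, highest with spironolactone, and 0.08 for the hormone alone.

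Psmb9 and Tap1 are neighbours that start on opposite strands, 226 bases apart in the same promoter table, so the same stretch lies upstream of both. It is shown because Psmb9 differed between libraries and Tap1, on its other side, did not do so to that extent. The stretch between their starts, chr17:34187331-34187555 on the minus strand, reads 5′ to 3′ towards Psmb9 as follows and holds 0 matches of the ISRE core.
Psmb9: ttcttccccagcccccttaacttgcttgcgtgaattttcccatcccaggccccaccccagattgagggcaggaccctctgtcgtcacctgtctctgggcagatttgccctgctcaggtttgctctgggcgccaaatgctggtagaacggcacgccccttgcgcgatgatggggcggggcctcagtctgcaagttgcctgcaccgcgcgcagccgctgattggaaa

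At the lower hormone dose Stat2 was the only member past 1.5-fold. Of the 32 members 0 were at least 1.5-fold higher, against 2.61% of all genes, and 1 was lower, Stat2, against 2.07%. The median difference was -0.02, against -0.01 for all genes, and 28 members (87.5%) lay within 1.2-fold of ethanol, where 79.7% of all genes did. The next lowest were Irf2 at -0.50, Tap1 at -0.50 and Ifit1 at -0.46, and the highest were Ifngr1 at 0.25 and Ifih1 at 0.25.

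The higher dose was set against the same ethanol library, so the comparisons share it. Irf7 and Psmb9 were at least 1.5-fold higher, 2 of 32 members against 2.39% of all genes, and Rsad2 was lower, 1 of 32 against 1.72%. As many members lay above ethanol as below it, 16 each, and 48.7% of all genes lay above it. The median was 0.01 against 0.00 for all genes, and 25 members (78.1%) lay within 1.2-fold, where 81.3% of all genes did. After the 2 higher genes came Ifit3 at 0.52 and Usp18 at 0.27, and after Rsad2 came Irf2 at -0.30 and Oasl1 at -0.29. Between the doses, Irf7 and Psmb9 were again past 1.5-fold, higher with 100 nM (2.04% of all genes), and Rsad2 was lower (1.96%). The members' median between the doses was 0.09, against 0.00, with 22 of 32 above 0 where 51.3% of all genes were. Neither other probe sets nor other processing was applied to this median, so whether it depends on them was not tested.

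Whether the antagonist alters the response to 100 nM aldosterone was read from the pretreated library against the hormone alone, which shares the 100 nM library with the comparison before. Psmb9 and Stat2 were at least 1.5-fold lower, 2 of 32 members against 2.51% of all genes, and Rsad2 was higher, 1 of 32 against 1.83%. The median over members was -0.10, against 0.00 for all genes, and 11 of 32 lay above 0 where 49.3% of all genes did. The lower quartile of the members was -0.20 and that of all genes -0.12. In the 9 members with a second probe set at or above the filter the median was -0.02 over their brightest probe sets and -0.01 over the next brightest. The summed signals of the distal convoluted tubule, leukocyte and fibroblast markers were also lowest with spironolactone, at 372, 2004 and 153 against 449, 2331 and 238 with 100 nM aldosterone alone. The epithelial sum was lowest with 1 nM aldosterone (290) and the endothelial sum in ethanol (125). Of the leukocyte markers Csf1r was 864 with spironolactone against 1123, while Itgam, Cd3e and Lyz2, all below the filter, were higher with it. Fgf9 and Emx1 of the tubule markers and Col3a1 and Pdgfrb of the fibroblast markers, all below the filter, were also higher with it. The remaining tubule and fibroblast markers with a probe set were lower. No fibroblast marker reached the filter. The part of these markers in the result was not tested. Against ethanol, the spironolactone library was past 1.5-fold for Irf7 (higher, 2.17% of all genes) and Stat2 (lower, 2.03%), with a median over members of -0.04. The second Stat2 probe set did not share this difference, at 0.04 where the brightest had -0.91. Against 1 nM aldosterone the spironolactone library was past 1.5-fold for Irf7, 1 member higher (1.75% of all genes), and for 0 members lower (2.66%). Of the 32 members 12 were highest in 100 nM aldosterone, 10 in ethanol, 6 in 1 nM aldosterone and 4 with spironolactone. Over all genes the shares highest in these libraries were 25.5%, 27.1%, 23.5% and 24.0%.

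**Figure D3:**
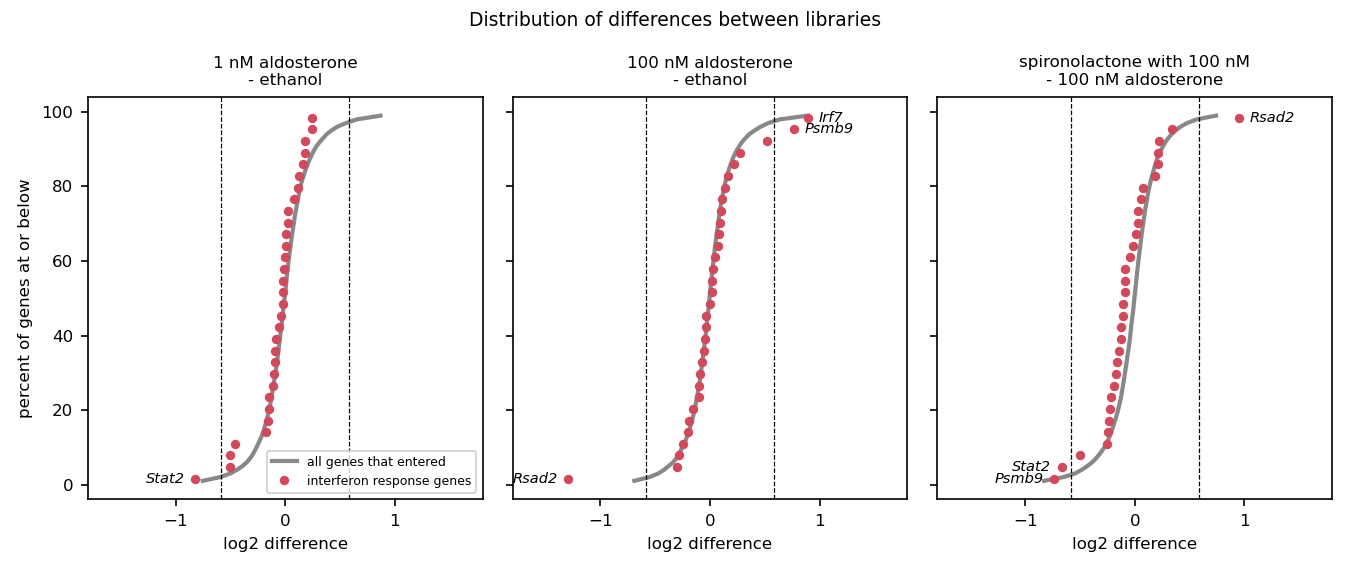
Cumulative percent of genes at or below a log2 difference, for the 32 interferon response genes (red points) and all 11057 genes (grey line, 1st to 99th percentile), in 3 comparisons of libraries; dashed lines mark 1.5-fold. The red points follow the middle of the grey line for both aldosterone doses against ethanol and lie to its left over the middle of the third panel, where the members' median is -0.10.

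A gene's probe sets did not always share its difference. Of the 32 members 14 had more than 1 probe set, and 15 further probe sets lay at or above the filter. In the comparison of 100 nM aldosterone with ethanol 1 of these 15 was past 1.5-fold, the third probe set of Adar, at -0.61, where the brightest differed by -0.09. The same probe set was the only one of the 15 past it with 1 nM aldosterone, at -0.62. With spironolactone against 100 nM aldosterone alone 0 of 15 were. Irf7, Psmb9 and Ifit3 each have a single probe set.

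**Figure D4:**
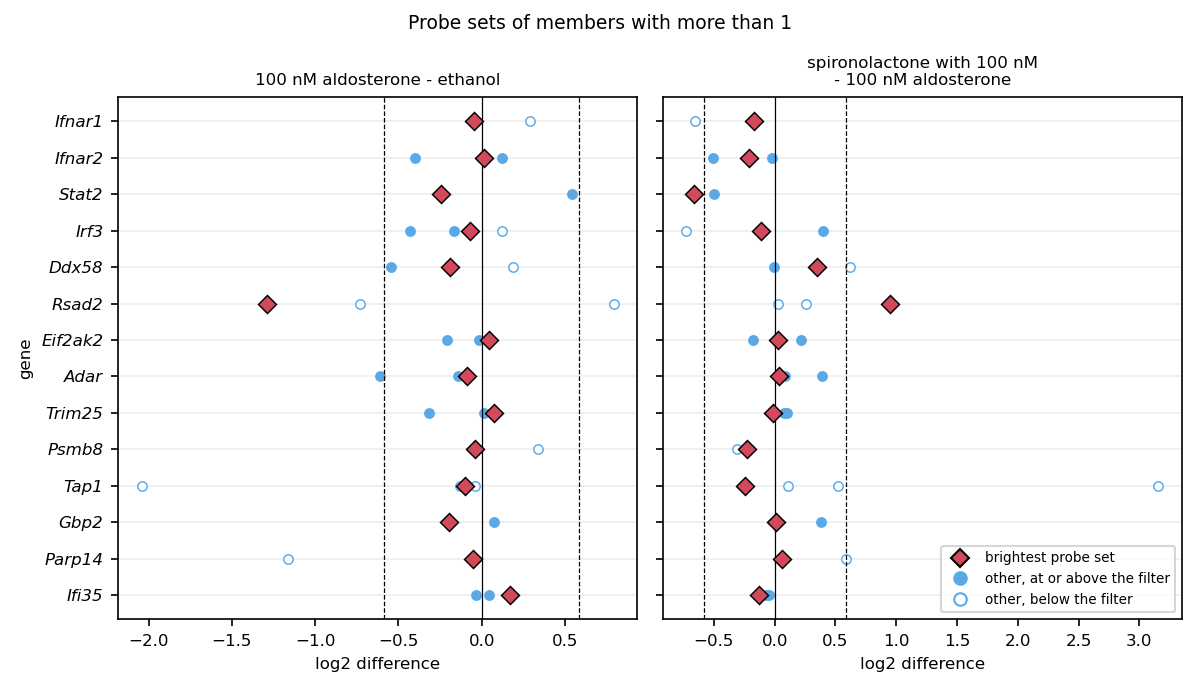
Log2 difference of every probe set of the 14 members with more than 1, for 100 nM aldosterone against ethanol (left) and spironolactone against 100 nM aldosterone alone (right); red diamonds are the brightest probe sets, blue circles the others, open where below the signal filter, and dashed lines mark 1.5-fold. The brightest Rsad2 probe set stands past 1.5-fold in both panels, while its other probe sets, open circles, lie on both sides of 0 on the left. The most distant open circles are of Tap1.

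Of the other genes of the interferon pathway, 90 had a probe set and 67 entered. With 1 nM aldosterone 0 of 67 were at least 1.5-fold higher than in ethanol (2.61% of all genes) and 6 of 67 were lower (2.07%). The lowest were the GTPase Gbp3 at -0.76 and the nuclear body protein Sp110 at -0.71. Next came the kinase Ikbke, which phosphorylates Irf3 and Irf7, at -0.70, and Mavs, the adaptor of the RNA sensors, at -0.63. Of the 6, Gbp3, Sp110, Ikbke, Ifi47 and Trim14 lay between the median and the 75th percentile of signal. There 29.8% of all genes passed 1.5-fold over the libraries, so the 2.07% is not matched to them for signal. Mavs was brighter, and its probe set is of a kind that may bind other transcripts. Other probe sets of these genes were not compared, and the cause was not tested. With 100 nM aldosterone 0 were higher (2.39% of all genes) and 2 lower (1.72%). These 2 were the adaptor of Toll-like receptors Ticam1 at -0.66 and Parp11 at -0.65. With spironolactone against 100 nM alone 0 were higher (1.83% of all genes) and 3 lower (2.51%). These 3 were the DNA sensor Cgas at -0.74, the Irf2 partner Irf2bp1 at -0.63 and Slfn2 at -0.60. The medians over the 67 were -0.02, 0.00 and -0.03 in these comparisons. Between the doses Trim14 and Phf11d were higher with 100 nM aldosterone, by 0.76 and 0.60 (2.04% of all genes), and 0 were lower (1.96%). The shares of all genes past 1.5-fold are those given above.

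The interferon genes listed numbered 9, and 5 of them were found, Ifnb1, Ifna1, Ifna2, Ifna4 and Ifng. These 5 lay below the filter, and the 4 not found have no signal here. A few further genes are given for their place in the pathway and were chosen after their values were seen. Jak1, the kinase that serves type I and gamma receptors alike, had signals of 2156, 2122, 2145 and 2160.1. B2m, the light chain of class I molecules, had signals of 13177, 13482, 13524 and 13658. Cxcl10, a chemokine that interferons induce strongly, had signals of 599, 590.3, 607 and 640.1, a range of 1.08-fold, and Socs1, the feedback inhibitor of the receptor kinases, had 72.4, 79.4, 69.1 and 56.2. Jak1 and Cxcl10 had the smallest spread among the listed receptors and kinases and among the chemokines that entered. The kinase Tyk2 had a range of 1.26-fold and the chemokine Cxcl11 one of 1.42-fold.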

How the data were processed

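Total RNA from 4 cultures, 250 ng each, was hybridised as biotin-labelled cRNA to an Affymetrix array, per the labels' protocols. The deposited values are probe set signal intensities on a linear scale, which the authors made with MAS5, per the submitters' processing notes. These leave the MAS5 version, scaling target and any detection call unnamed: not given in the sources used here. Trimmed means (2% at each end) were equal in all arrays, so they had been scaled before deposit, and no further scaling was applied. Sample columns of no sample of the series numbered 0.

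Of 45101 probe sets 64 were controls. The platform annotation gave 1 symbol to 34945 and several to 932, and 9160 were not listed; RefSeq (GRCm38.p6) changed 0 member symbols. No build is named in the files. Promoter sequences are RefSeq's. Differences are log2 signal differences with no pseudocount, and a member was called at 1.5-fold or more. With 1 array per treatment nothing was tested. The number of arrays limits precision, and MAS5 signals spread more where they are dim. All members that passed the filter were to be named, and up to 4 other pathway genes past 1.5-fold in each direction. The members, lists and this rule were chosen with earlier results of these data known. Python 3.11.15 and pandas 2.3.3 were used. The calls were tested on simulated data with equal noise at every signal level. That was a check of the code and says nothing on how reliable calls of dim genes are. Alternatives covered quantile normalization, probe set choice, signal filter, a floor, a pseudocount of 50 and a 2-fold limit.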

Additional observations from a re-analysis of the deposited data

How the results depend on the processing

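The 3 medians over members moved by at most 0.1 under all 7 alternatives that apply to them (21 of 21 values). That limit is no smaller than the medians themselves (-0.02, 0.01 and -0.10), so it cannot show that a median kept its size or sign. For spironolactone against 100 nM alone the median was -0.10 over all members. In the 9 members with a second probe set at or above the filter it was -0.02 over the brightest and -0.01 over the next brightest. The gap from -0.10 was thus already there with the brightest probe sets of these 9. Quantile normalization and a floor at the filter left the 6 counts of members past 1.5-fold within 1.5 times of those reported. Of the 48 alternative counts 22 moved by more. Above the 75th percentile of signal (17 members), and with the next brightest probe set (9 members), all 6 counts were 0. In the latter the Stat2 difference for 1 nM aldosterone against ethanol changed sign, to 0.036. With the median over probe sets 0 members were lower with 1 nM aldosterone and 1, Psmb9, was lower with spironolactone against 100 nM alone. A pseudocount of 50 gave 0 and 1 for these counts and 0 for the members higher with spironolactone. At 2-fold all counts were 0 except 1 for Rsad2, lower with 100 nM aldosterone. With no filter (36 members), 2 were higher and 2 lower with 1 nM aldosterone, and 4 lower with spironolactone. None of the 4 members past 1.5-fold reached the 75th percentile, and Irf7, Psmb9 and Rsad2 have no second probe set at or above the filter. For the rest the cause was not tested. No paired analysis was possible because each treatment has 1 array. Leaving out an array would leave a treatment with none. Signals near the filter, as for Stat2 and Rsad2, are the least precise.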
